A study of Homo sapiens with 6 samples.

Results

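RNA polymerases I, II and III copy the genes of the cell nucleus. RNA polymerase I makes the large ribosomal RNA precursor, RNA polymerase II makes messenger RNAs, and RNA polymerase III makes transfer RNAs and other short RNAs. Each is a complex of many subunits, some of its own and some shared with the others, and each needs initiation factors that bring it to its promoters. Ribosome and transfer RNA supply follow growth, and signalling through the MAP kinase pathway is known to act on initiation factors of RNA polymerases I and III.

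The genes described here are the subunits of the 3 polymerases, named POLR1, POLR2 or POLR3 with a letter, together with the RNA polymerase I factors RRN3, UBTF and TAF1A to TAF1D and the RNA polymerase III factors BRF1 and BRF2. They were picked by symbol, and the choice of this set was made with earlier results of these data known. The rule found 37 genes among the 19361 rows of the expression table, after 1 transcribed pseudogene (POLR2J4) was left out, and all 37 passed the filter on dim rows described below. Of these, 6 are subunits of RNA polymerase I alone, 7 of RNA polymerase II alone and 9 of RNA polymerase III alone. A further 2 subunits are shared by RNA polymerases I and III and 5 by all 3 enzymes, and the remaining 8 genes are the initiation factors. Subunits whose rows carried no gene name in the probe annotation were not analysed here.

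The study measured gene expression in the established human bladder carcinoma line UMUC-14, grown in DMEM with fetal bovine serum, on Affymetrix U133 Plus 2.0 arrays, which read transcripts with short oligonucleotide probes. The control group was 3 arrays of cells given the LipofectaminRNAimax transfection reagent without an siRNA, for 40 h. The siFGFR3 group was 3 arrays of cells transfected for 40 h with an siRNA that targets FGFR3, one of the receptor tyrosine kinases for fibroblast growth factors. Each of these arrays used its own siRNA, siFGFR3#35, siFGFR3#36 or siFGFR3#3. No non-targeting siRNA is named in the labels, so having an siRNA and losing FGFR3 cannot be told apart. Whether the reagent-alone arrays are from separate cultures is not labelled either, so their spread may be technical. The siFGFR3 arrays each had a different siRNA, so their spread also holds differences between siRNAs. The p-values hold only the spread of these arrays. Levels are log2 values made by the authors with RMA, and a difference is the mean of the siFGFR3 arrays minus the mean of the reagent-alone arrays on that scale. The test was limma over the 13552 rows left after the dimmest 30% (mean level under 3.89) were dropped, and a gene was called higher or lower at a Benjamini-Hochberg adjusted p under 0.05.

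FGFR3 itself read 8.70, 8.75 and 8.74 on the reagent-alone arrays and 7.47, 7.14 and 8.45 with siFGFR3#35, siFGFR3#36 and siFGFR3#3. The siFGFR3#3 array thus kept 82.2% of the control signal, against 41.7% and 33.3% on the others. FGFR3 fell by 1.04 (SE 0.30, adjusted p = 0.0271), and it was not called without any 1 of the reagent-alone arrays (adjusted p = 0.0732 to 0.0817) or without siFGFR3#35 (0.0703). Urothelial and epithelial markers were present: 10 of 12 listed genes had a row, all 10 passed the filter, and KRT7 read 12.30 ± 0.04 (SD, n = 3) in reagent-alone cells. Of these 10, 5 were called higher: GATA3 (0.79), TFAP2A (0.58), ELF3 (0.43), KRT19 (0.27) and FOXA1 (0.19). EPCAM was called lower (−0.51). Among all tested genes 20.6% were called higher and 24.6% lower, and these shares stand beside each marker count here. The log2 of the summed linear signal of the 10 was 14.3 to 14.4 in reagent-alone cells and 14.4 to 14.5 in siFGFR3 cells. Sums of the other marker lists are on the same scale. Of 9 leukocyte markers with a row, PTPRC (2.15 in controls) and MS4A1 (2.81) were under the dim limit and 7 passed the filter, the brightest being LCP1 (9.15 in controls, 8.85 in siFGFR3 cells) and CORO1A (8.0 and 7.63). CORO1A and CD3D were called lower, and the 9 summed to 9.86 to 10.0 in reagent-alone and 9.54 to 9.72 in siFGFR3 cells. The 8 fibroblast markers summed to 7.08 to 7.23 and 7.19 to 7.35, and the 6 endothelial markers to 6.82 to 6.90 and 6.80 to 7.03. Only 3 of the 8 fibroblast markers passed the filter, and of these COL1A1 was called higher (0.64) and THY1 lower (−0.34). Only 2 of the 6 endothelial markers passed it, and none of these was called. The part of these shifts in the results below was not tested, and in RNA from whole cultures a smaller share of cells with a transcript and less of it in each cell cannot be told apart.

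The members whose promoters are shown here are those with the largest falls (POLR3K and TAF1A), the member with the largest rise (POLR3GL), and others with a motif near the start. They are RefSeq sequences of build GRCh38.p14, from 150 bases before to 20 bases after the annotated transcription start, read 5′ to 3′ on the gene's strand. Capitals mark a match to CACGTG, the E-box read by MYC and related factors, or to CCGGAAG, a core read by ETS factors, on either strand (the reverse of the second reads CTTCCGG).
POLR3K, chr16:53589-53758, minus strand: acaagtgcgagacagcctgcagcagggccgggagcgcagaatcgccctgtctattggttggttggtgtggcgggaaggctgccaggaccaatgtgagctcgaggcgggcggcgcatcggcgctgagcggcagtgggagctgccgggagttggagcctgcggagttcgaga
TAF1A, chr1:222589914-222590083, minus strand: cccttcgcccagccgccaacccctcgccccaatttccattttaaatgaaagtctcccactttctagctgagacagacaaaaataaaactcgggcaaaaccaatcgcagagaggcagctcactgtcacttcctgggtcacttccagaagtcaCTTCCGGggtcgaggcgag
POLR3GL, chr1:145964540-145964709, plus strand: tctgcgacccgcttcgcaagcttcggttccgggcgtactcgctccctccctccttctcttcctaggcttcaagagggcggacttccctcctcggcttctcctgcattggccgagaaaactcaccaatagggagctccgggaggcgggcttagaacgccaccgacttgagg
POLR1G, chr19:45406494-45406663, plus strand: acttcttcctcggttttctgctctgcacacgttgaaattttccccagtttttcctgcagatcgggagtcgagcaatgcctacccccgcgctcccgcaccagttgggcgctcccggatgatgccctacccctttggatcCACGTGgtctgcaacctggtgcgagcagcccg
POLR3A, chr10:78029496-78029665, minus strand: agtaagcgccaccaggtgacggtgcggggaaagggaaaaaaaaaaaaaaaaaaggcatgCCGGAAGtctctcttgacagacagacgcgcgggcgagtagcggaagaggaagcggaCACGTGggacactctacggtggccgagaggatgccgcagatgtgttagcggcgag
POLR3E, chr16:22297259-22297428, plus strand: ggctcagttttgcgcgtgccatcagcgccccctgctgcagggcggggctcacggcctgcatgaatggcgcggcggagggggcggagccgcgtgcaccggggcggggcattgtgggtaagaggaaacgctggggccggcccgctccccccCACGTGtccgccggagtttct

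Promoter windows of 300 bases (250 before to 50 after a start) were found for 29 of the 37 genes, 42 windows in all because some genes have several starts. An E-box stood in 4 windows, those of POLR1G, POLR3A, POLR3C and POLR3E, or 9.52% of the windows, against 9.37% of the windows of tested genes and 7.26% of all windows. The ETS core, a motif added after the values were seen, stood in 16 windows of 12 genes, or 38.1%, against 15.9% of the windows of tested genes and 10.3% of all. These genes were POLR1B, POLR1C, POLR2C, POLR2D, POLR2F, POLR3A, POLR3C, RRN3 and TAF1A to TAF1D. The TATA box TATAAA was in none of the 42 windows (0), against 6.61% of the windows of tested genes and 11.5% of all. Windows of a gene can overlap and no test was made. The ETS core was found both in genes that fell, such as TAF1A and POLR1B, and in POLR3A, POLR2F and TAF1C, which were not called.

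Across the 37 genes, 27 were lower in siFGFR3 cells, 1 was higher and 9 were not called. The 27 include POLR3G, whose siFGFR3 arrays were all under the dim limit; without it 26 of 36 were lower. Of all tested genes 24.6% were lower and 20.6% higher (3329 and 2789 genes; 4285 and 2312 with each array centred on its median). The median difference of the 37 genes was −0.35, against −0.04 for all tested genes. Without any 1 of the reagent-alone arrays, 20 or 21 of the 37 were lower, against 1964 to 1988 of all genes. All 3 siFGFR3 arrays lay below all 3 reagent-alone arrays for 30 of the 37, against 33.9% of all tested genes, and above them for 1, against 26.9%. Without POLR3G they lay below for 29 of 36.

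The subunits particular to each polymerase are set side by side here as a description, without a test between the lists. Their counts stand beside 24.6% lower and 20.6% higher among all tested genes. All 6 subunits particular to RNA polymerase I were lower, with a median difference of −0.53 and a range of −0.92 to −0.41. For RNA polymerase III 7 of 9 were lower, 1 was higher and 1 was not called, with a median of −0.47 and a range of −1.04 to 0.75; without POLR3G 6 of 8 were lower, with a median of −0.42. For RNA polymerase II 4 of 7 were lower and 3 were not called, with a median of −0.19 and a range of −0.41 to −0.09. The subunits common to all 3 enzymes had a median of −0.29, with 4 of 5 lower (2 without lipofectamine replicate 1). Without any 1 of the reagent-alone arrays the lower RNA polymerase II subunits numbered 1 in place of 4. They numbered 1 without siFGFR3#35, 2 without siFGFR3#3 and 5 without the remaining siFGFR3 array. Fits without a reagent-alone array called 1964 to 1988 of all tested genes lower, against 3329 in the main fit. Without siFGFR3#35 it was 3143, without siFGFR3#3 2756 and without the remaining siFGFR3 array 3680. The RNA polymerase I and III counts stayed at 6 and 7 in each of these fits. The 7 include POLR3G, whose siFGFR3 arrays were all under the dim limit. With the dimmest 50% of rows left out, POLR3G was not tested and the RNA polymerase III count was 6.

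**Figure D1:**
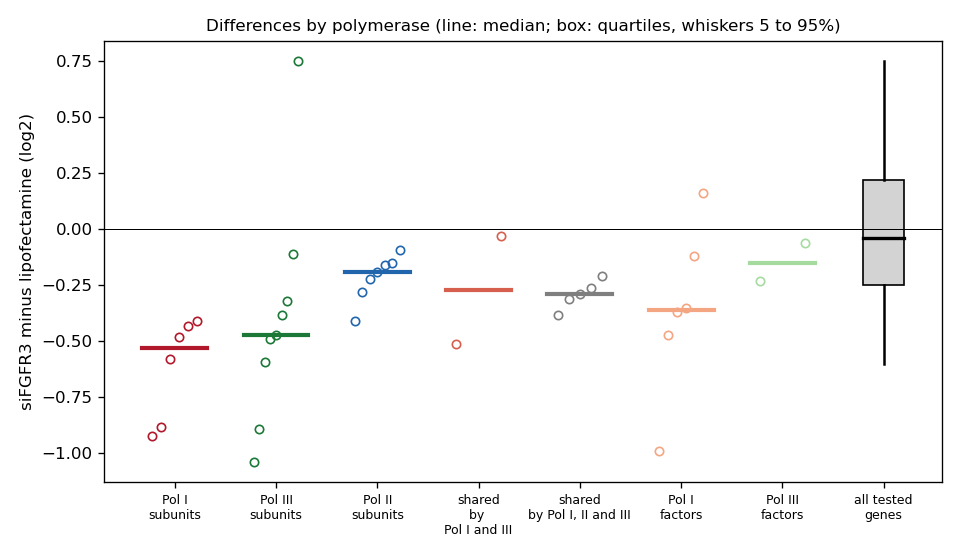
Difference between siFGFR3 and reagent-alone cells (log2, vertical axis) of each gene by complex; circles are genes, thick lines medians, and the box shows the quartiles and the 5th to 95th percentiles (−0.60 to 0.75) of the 13552 tested genes. All 6 RNA polymerase I subunits lie at −0.41 or lower, while the 7 RNA polymerase II subunits lie between −0.41 and −0.09.

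Each siRNA array was also set against the reagent-alone arrays, which all of these comparisons share. RNA polymerase I subunits had medians of −0.56, −0.46 and −0.64 with siFGFR3#35, siFGFR3#36 and siFGFR3#3. RNA polymerase III subunits had −0.48, −0.31 and −0.48, and RNA polymerase II subunits −0.21, −0.12 and −0.25. The siFGFR3#3 array, which kept the most FGFR3 signal, was thus the lowest or level with the lowest in each of these subunit lists. It was also the lowest for the shared subunits (−0.28 and −0.29). The initiation factors were lowest with siFGFR3#35. Those of RNA polymerase I had −0.39, −0.32 and −0.29, and those of RNA polymerase III −0.20, −0.06 and −0.18. Each siRNA has 1 array, and a model with a level for each siRNA would take its spread from the reagent-alone arrays, whose median SD per gene was 0.0536 against 0.129 for the siFGFR3 arrays, so differences between siRNAs are given as values without a test.

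**Figure D2:**
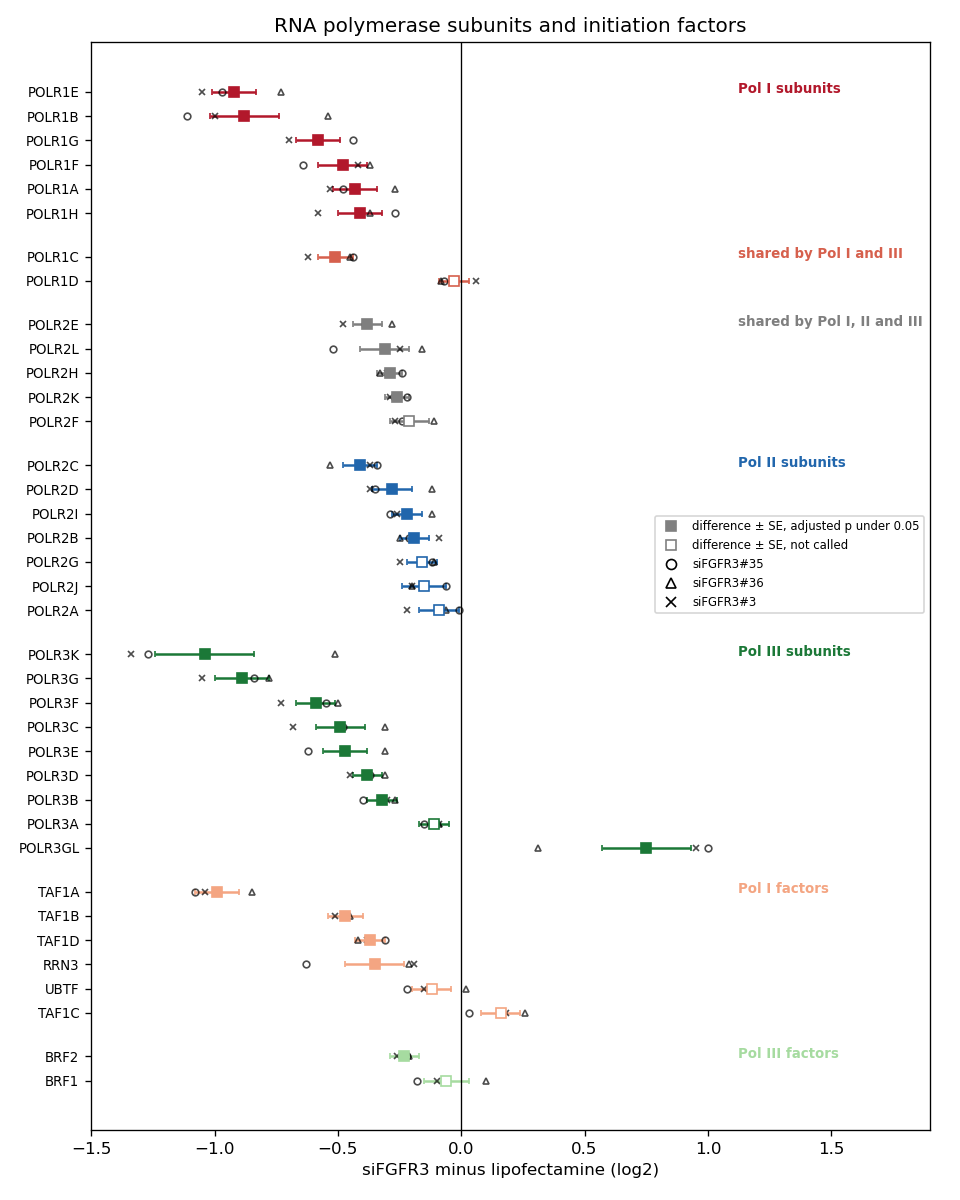
Difference from reagent-alone cells (log2, horizontal axis) of each of the 37 genes, grouped by complex; squares with bars are the difference ± SE of 3 arrays against 3, filled where the adjusted p is under 0.05, and small symbols are the single siRNA arrays against the control mean. POLR3GL is the 1 filled square to the right of 0, POLR3G is dim in siFGFR3 cells, and POLR3K spreads from −1.34 to −0.51 between siRNAs.

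Among the RNA polymerase I subunits, POLR1E fell the most; it forms with POLR1G a pair that helps the enzyme start and elongate. POLR1E (Entrez gene 64425) read 7.66, 7.67 and 7.59 on the reagent-alone arrays and 6.66, 6.91 and 6.59 with siFGFR3#35, siFGFR3#36 and siFGFR3#3. All siFGFR3 arrays were below all controls, and the siFGFR3#36 array was the highest of them. It fell by 0.92 (SE 0.09, adjusted p = 0.000852), to 53.0% of the control signal, and 1.29% of all tested genes fell as much or more. Its partner POLR1G (10849) read 7.89, 7.72 and 7.68 in controls and 7.33, 7.17 and 7.07 in siFGFR3 cells. The groups did not overlap, and it fell by 0.58 (SE 0.09, adjusted p = 0.00331).

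POLR1B (84172), which builds the catalytic centre together with POLR1A, read 7.61, 7.58 and 7.65 in controls. With siFGFR3#35, siFGFR3#36 and siFGFR3#3 it read 6.51, 7.07 and 6.61, all below the controls. It fell by 0.88 (SE 0.14, adjusted p = 0.00346), and siFGFR3#36 was the array nearest to the controls. POLR1A, the largest subunit, fell by 0.43 (SE 0.09, adjusted p = 0.00907). POLR1F, the stalk subunit that RRN3 binds, fell by 0.48 (SE 0.10, adjusted p = 0.00788), and POLR1H, a small subunit for cleavage of the nascent RNA, fell by 0.41 (SE 0.09, adjusted p = 0.00976). Both groups of arrays were separate for each of these.

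POLR1C and POLR1D, shared by RNA polymerases I and III, pair with each other as the platform on which the enzymes assemble. POLR1C (9533) read 8.23, 8.26 and 8.21 in controls and 7.79, 7.79 and 7.61 in siFGFR3 cells. It fell by 0.51 (SE 0.07, adjusted p = 0.0021) with no overlap of the groups. POLR1D (51082) read 9.28, 9.21 and 9.25 in controls and 9.18, 9.17 and 9.30 in siFGFR3 cells. Its arrays overlapped, and its difference was −0.03 with a 95% confidence interval of −0.17 to 0.11 (adjusted p = 0.692).

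The initiation factors of RNA polymerase I were lower in 4 of 6 cases, against 24.6% of all tested genes. The 4 became 3 without the filter on dim rows, without the variance trend or without any 1 of the reagent-alone arrays. Across all genes these fits called 3832, 3324 and 1964 to 1988 lower, against 3329 in the main fit. TAF1A to TAF1D join the TATA-binding protein in the selectivity complex that recruits the enzyme to ribosomal DNA. TAF1A (9015) read 8.0, 7.81 and 7.80 in controls and 6.78, 7.01 and 6.82 in siFGFR3 cells, well apart. It fell by 0.99 (SE 0.09), a 1.99-fold change, with the smallest adjusted p of the 37 genes, 0.000646. TAF1B (9014) read 7.02, 7.08 and 7.19 in controls and 6.63, 6.65 and 6.59 in siFGFR3 cells, and fell by 0.47 (SE 0.07, adjusted p = 0.00255). TAF1D (79101) read 9.64, 9.66 and 9.72 against 9.36, 9.25 and 9.29, and fell by 0.37 (SE 0.06, adjusted p = 0.00273). The siFGFR3 arrays of both genes were close to each other and below the controls.

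TAF1C, of the same complex, read 6.49, 6.44 and 6.53 in controls and 6.52, 6.75 and 6.67 in siFGFR3 cells. The groups overlapped, and the difference of 0.16 had a 95% interval of −0.03 to 0.35 (adjusted p = 0.136); without siFGFR3#35 it was 0.22 and called (adjusted p = 0.0386). RRN3, the growth-regulated factor that links RNA polymerase I to its promoter, read 9.24, 9.26 and 9.27 in controls and 8.63, 9.05 and 9.07 in siFGFR3 cells, so that siFGFR3#35 alone was far below. RRN3 fell by 0.35 (SE 0.12, adjusted p = 0.0484), and it was not called without any 1 of the reagent-alone arrays (adjusted p = 0.116 to 0.13), without the filter on dim rows (0.0543) or without the variance trend (0.0542). UBTF, which coats active ribosomal DNA, had a difference of −0.12 (95% interval −0.31 to 0.07, adjusted p = 0.269), with overlapping arrays.

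Within RNA polymerase III the subunits POLR3C, POLR3F and either POLR3G or POLR3GL form the unit that opens the promoter. POLR3G and POLR3GL are paralogs that take the same place; POLR3G is known as the form of stem cells and many tumours, POLR3GL as the form of most differentiated tissues. POLR3G (10622) read 4.55, 4.53 and 4.81 in controls and 3.79, 3.85 and 3.57 in siFGFR3 cells. All siFGFR3 values were below the controls and also below the dim limit of 3.89, so the difference of −0.89 has an uncertain size, and the gene passed the filter through the reagent-alone arrays. Its adjusted p was 0.00154, and 0.00168 with no filter on dim rows, and it was not tested when the dimmest 50% of rows were left out.

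POLR3GL (84265) read 7.01, 6.90 and 6.88 in controls and 7.93, 7.24 and 7.88 with siFGFR3#35, siFGFR3#36 and siFGFR3#3. Each siFGFR3 array was above each control, and siFGFR3#36 was the nearest to them. POLR3GL rose by 0.75 (SE 0.18, adjusted p = 0.0142), a 1.68-fold change; without lipofectamine replicate 2 or 3 it was not called (adjusted p = 0.0518 and 0.056). Above the control mean these arrays stood by 1.00, 0.31 and 0.95.

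POLR3F and POLR3C, of the same unit, were lower. POLR3F (10621) read 8.24, 8.32 and 8.4 in controls and 7.77, 7.82 and 7.59 in siFGFR3 cells, without overlap, and fell by 0.59 (SE 0.08, adjusted p = 0.00211). POLR3C fell by 0.49 (SE 0.10, adjusted p = 0.00817). POLR3D and POLR3E form a pair with roles in initiation and termination. POLR3D (661) read 7.29, 7.30 and 7.32 in controls and 6.93, 6.99 and 6.85 in siFGFR3 cells, and fell by 0.38 (SE 0.06, adjusted p = 0.00424). POLR3E fell by 0.47 (SE 0.09, adjusted p = 0.00586), and the groups were separate for both.

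POLR3K, the small subunit for RNA cleavage and termination, had the largest fall of the 37 genes and is shown in full after its values were seen. It (51728) read 10.10, 10.15 and 10.03 in controls and 8.83, 9.58 and 8.76 with siFGFR3#35, siFGFR3#36 and siFGFR3#3. All siFGFR3 arrays were below the controls, with siFGFR3#36 nearest to them. POLR3K fell by 1.04 (SE 0.20, adjusted p = 0.00695), to 48.7% of the control signal, and 0.723% of all tested genes fell as much or more. Of the catalytic subunits, POLR3B fell by 0.32 (SE 0.06, adjusted p = 0.00674), while POLR3A had a difference of −0.11 (95% interval −0.25 to 0.03, adjusted p = 0.162), although its arrays did not overlap.

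**Figure D3:**
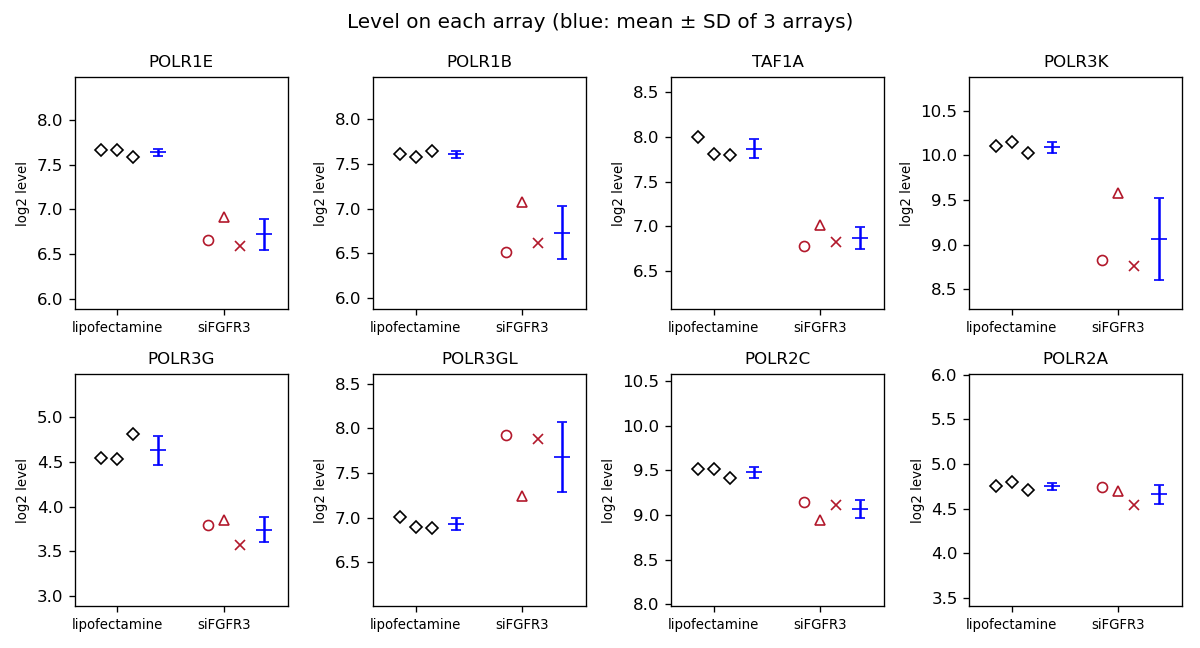
Level on each array (log2, vertical axis, the same span in every panel) of 8 genes; open diamonds are reagent-alone arrays, the circle, triangle and cross are siFGFR3#35, siFGFR3#36 and siFGFR3#3, and blue bars are mean ± SD of 3 arrays. POLR3GL lies higher in every siFGFR3 array (7.24 to 7.93 against 6.88 to 7.01), the arrays of POLR2A overlap, and the triangle is nearest to the controls for POLR1B, POLR3K and POLR3GL.

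BRF1 and BRF2 belong to the factor that places RNA polymerase III on its promoters, BRF1 at transfer RNA genes and BRF2 at genes with an upstream element such as those of small nuclear RNAs. BRF2 (55290) read 8.05, 8.03 and 8.03 in controls and 7.81, 7.82 and 7.77 in siFGFR3 cells. Its arrays were tight and separate, and it fell by 0.23 (SE 0.06, adjusted p = 0.0138), a call lost without any 1 of the reagent-alone arrays (adjusted p = 0.0571 to 0.0686). BRF1 read 5.24, 5.27 and 5.27 in controls and 5.08, 5.36 and 5.16 in siFGFR3 cells, which overlap, with a difference of −0.06 (95% interval −0.27 to 0.15, adjusted p = 0.582).

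The subunits of RNA polymerase II had differences no further from 0 than −0.41. POLR2C (5432), the counterpart of POLR1C in assembly, read 9.52, 9.52 and 9.42 in controls and 9.15, 8.95 and 9.11 in siFGFR3 cells. It fell by 0.41 (SE 0.07, adjusted p = 0.00418), the groups being separate. POLR2I (5438), which acts in start site choice and cleavage of the nascent RNA, read 9.78, 9.85 and 9.77 against 9.51, 9.68 and 9.54, and fell by 0.22 (SE 0.06, adjusted p = 0.0274). POLR2D (5433), of the stalk, read 8.24, 8.27 and 8.22 against 7.89, 8.12 and 7.87, and fell by 0.28 (SE 0.08, adjusted p = 0.0277). In both, siFGFR3#36 was nearest to the controls.

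POLR2B, which forms the catalytic centre with POLR2A, fell by 0.19 (SE 0.06, adjusted p = 0.0366). POLR2B, POLR2D and POLR2I were not called without any 1 of the reagent-alone arrays (adjusted p = 0.0734 to 0.132) or without siFGFR3#35 (0.052 to 0.0657). Without siFGFR3#3 POLR2D and POLR2I were not called either (0.0686 and 0.0643), and POLR2B was not without the variance trend (0.0607). POLR2A (5430), the largest subunit, whose repeated tail is phosphorylated during transcription, read 4.75, 4.80 and 4.71 in controls and 4.74, 4.70 and 4.54 in siFGFR3 cells. These are less than 1 above the dim limit, the arrays overlapped, and the difference was −0.09 (95% interval −0.28 to 0.10, adjusted p = 0.358). POLR2G, the stalk partner of POLR2D, had a difference of −0.16 (adjusted p = 0.0639; −0.19 and adjusted p = 0.0354 without siFGFR3#36, and −0.23 and 0.025 with each array centred on its median). POLR2J, the counterpart of POLR1D, had a difference of −0.15 (95% interval −0.36 to 0.05, adjusted p = 0.186).

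Of the subunits built into all 3 enzymes, 4 of 5 were lower, against 24.6% of all tested genes, with differences of −0.38 to −0.26. POLR2E (5434) read 11.03, 11.09 and 11.02 in controls and 10.66, 10.77 and 10.56 in siFGFR3 cells, and fell by 0.38 (SE 0.06, adjusted p = 0.00349). POLR2H (5437) read 10.08, 10.17 and 10.07 against 9.86, 9.78 and 9.80, and fell by 0.29 (SE 0.05, adjusted p = 0.0059). POLR2K (5440) read 9.13, 9.07 and 9.06 against 8.87, 8.81 and 8.80. The groups of these genes were separate. POLR2K fell by 0.26 (SE 0.05, adjusted p = 0.00847; 0.0523 without lipofectamine replicate 1). POLR2L fell by 0.31 (SE 0.10, adjusted p = 0.0401), most with siFGFR3#35 (−0.52), and was not called without any 1 of the reagent-alone arrays (adjusted p = 0.101 to 0.119) or without siFGFR3#3 (0.0607). POLR2F, near the dim limit at 4.77 ± 0.06 (SD, n = 3) in controls, had a difference of −0.21 (95% interval −0.39 to −0.02, adjusted p = 0.0655), and it was called with each array centred on its median (−0.27, adjusted p = 0.0368) and without siFGFR3#36 (−0.25, 0.0326).

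Proteins that work with the polymerases were listed for comparison, and their counts stand beside 24.6% lower and 20.6% higher among all tested genes. Of 14 genes that assemble the enzymes and bring them to the nucleus, 6 were lower and 8 were not called, with a median difference of −0.26. The lower genes numbered 8 with arrays centred on their median and 5 without any 1 of the reagent-alone arrays. These fits called 4285 and 1964 to 1988 of all genes lower, against 3329 in the main fit. RUVBL1, an ATPase of the assembly chaperone, fell by 0.84 (SE 0.06, adjusted p = 0.000442), and the prefoldin subunit PFDN2 fell by 0.63 (SE 0.07, adjusted p = 0.00126). Of 9 accessory factors of RNA polymerase I, 5 were lower and 4 were not called (median −0.24), and 3 were lower without any 1 of the reagent-alone arrays or without siFGFR3#3, fits that called 1964 to 1988 and 2756 of all genes lower. Among them the nucleolar protein MYBBP1A fell by 0.75 (SE 0.10, adjusted p = 0.00171). TCOF1, needed for ribosomal DNA transcription, fell by 0.76 (SE 0.11, adjusted p = 0.00243).

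Of 17 other tested genes of RNA polymerase III transcription, 5 were lower, 1 was higher and 11 were not called (median −0.11), and 3 were lower and 0 higher without any 1 of the reagent-alone arrays. In the main fit the lower share was near the 24.6% of all tested genes, and 20.6% of all were higher. Fits without a reagent-alone array called 1964 to 1988 of all genes lower, against 3329 in the main fit. With arrays centred on their median 7 of the list were lower and 0 higher, against 4285 and 2312 of all genes. One of the lower genes, named after its values were seen, was CRCP, an RNA polymerase III subunit whose symbol is outside the rule. CRCP fell by 0.20 (SE 0.06, adjusted p = 0.0365). It was not called without any 1 of the reagent-alone arrays (adjusted p = 0.0779 to 0.137) or with array weights (0.058). SNAPC1, of the complex that binds the upstream element of small nuclear RNA genes, fell by 0.69 (SE 0.08, adjusted p = 0.00122), and its partner SNAPC4 fell by 0.34 (SE 0.07, adjusted p = 0.00897). The 1 higher gene, named after its values were seen, was MAF1, the repressor of RNA polymerase III, which rose by 0.22 (SE 0.07, adjusted p = 0.0348). MAF1 was not called with arrays centred on their median (0.16, adjusted p = 0.132) or without any 1 of the reagent-alone arrays (0.0882 to 0.133). It read 7.39 in controls and 7.61 in siFGFR3 cells on average.

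For RNA polymerase II, 6 of 15 tested general factors were lower, 2 were higher and 7 were not called (median −0.23); 10 were lower with arrays centred on their median. Of all tested genes 24.6% were lower and 20.6% higher. That is 3329 and 2789 genes, against 4285 lower and 2312 higher with arrays centred on their median. CCNH, the cyclin of the kinase that phosphorylates the tail of POLR2A, fell by 0.51 (SE 0.07, adjusted p = 0.00232), and the TFIIA subunit GTF2A1 fell by 0.47 (SE 0.07, adjusted p = 0.00236). The higher ones, named after their values were seen, were GTF2B (0.29) and ERCC2 (0.27); ERCC2 was not called without lipofectamine replicate 1 or 3 or siFGFR3#3 (adjusted p = 0.0508 to 0.0873). Of 22 pausing and elongation genes 2 were lower, 2 were higher and 18 were not called, with a median of −0.01; with arrays centred on their median 4 were lower and 0 higher. The lower ones, SSRP1 and SUPT16H, are the subunits of the histone chaperone FACT. SSRP1 fell by 0.46 (SE 0.07, adjusted p = 0.00311), and SUPT16H fell by 0.24 (SE 0.07, adjusted p = 0.028), a call lost without lipofectamine replicate 1 or 2 or siFGFR3#3 or with array weights (adjusted p = 0.0617 to 0.113). The higher ones, again named after their values were seen, were XRN2 (0.19) and RTF1 (0.26). Both calls were lost with arrays centred on their median (adjusted p = 0.101 and 0.0799), with array weights (0.0522 and 0.0572) and without any 1 array other than siFGFR3#36 (0.0624 to 0.161).

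**Figure D4:**
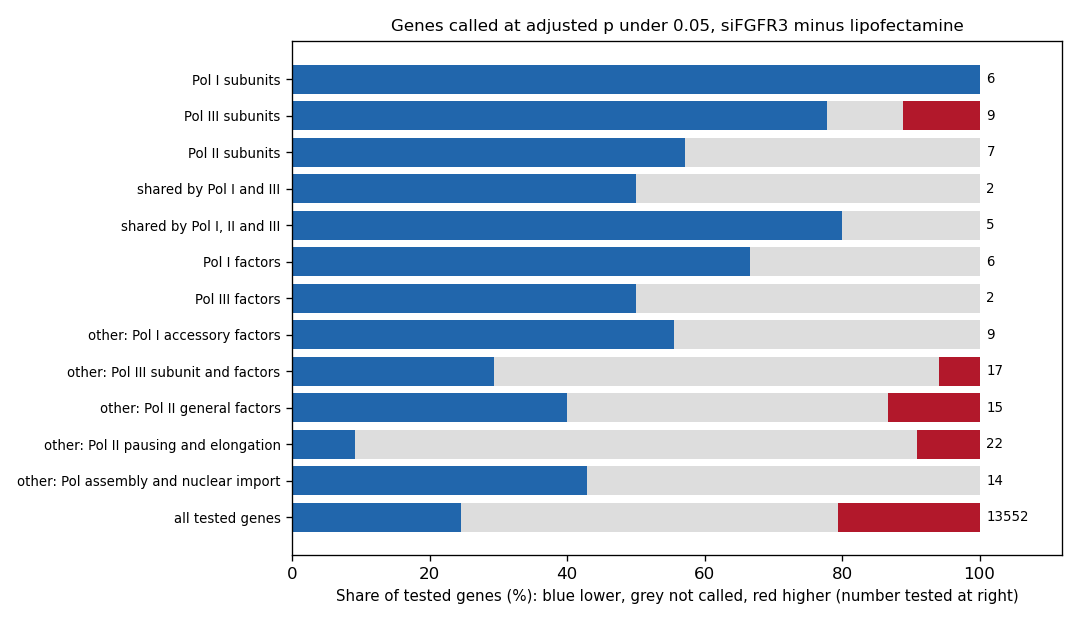
Share of tested genes (percent, horizontal axis) that were lower (blue), not called (grey) or higher (red) in siFGFR3 cells, for each complex, each list of associated proteins and all tested genes, with the number tested at the right. RNA polymerase I subunits are lower in 6 of 6 cases, pausing and elongation genes of RNA polymerase II in 2 of 22, and all tested genes in 24.6%.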

How the data were processed

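The deposited table holds 1 column of log2 expression levels per array, 6 arrays in all; per the submitters' processing notes the authors obtained these values by RMA (affy), and no versions are stated. RMA equalises the arrays' distributions, which would shrink any change common to most genes. Rows are named by Entrez gene ID; the probe annotation named 18669 of 19361, and symbols were updated through RefSeq (GRCh38.p14). The 692 unnamed rows stayed in the fit. For the probes' genome build, the sources used here give nothing. No depth exists for arrays, and their number limits the precision.

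The dimmest 30% of rows were dropped, and limma 3.58.1 (R 4.3.3; eBayes with trend) was fitted to 2 groups of 3 arrays, with Benjamini-Hochberg adjustment over 13552 rows, two-sided. A planned model with a level for each siRNA is not reported, since each siRNA has 1 array. The method was tested on simulated data. The genes, lists and tests were chosen with earlier results of these data known. All 37 genes may be named; arrays are given singly for the 3 called members of each class with the smallest adjusted p in each direction, for POLR3G and POLR3GL, and for further members described after their values were seen; of each list of associated proteins, the 2 with the smallest adjusted p are named. Alternatives were other filters, no variance trend, array weights, median centring and leaving out each array; for the associated proteins these were added after seeing the data.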

Additional observations from a re-analysis of the deposited data

How the results depend on the processing

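Of the 37 genes, 33 were run under 11 alternatives and 4 (POLR2A, POLR2F, POLR3G and BRF1) under 10, since the stricter filter drops them; 26 kept their direction and their side of the threshold wherever they were run, 20 of them lower. In 403 comparisons of a gene with an alternative, 30 lost the call, 5 gained it and 0 changed direction. Leaving out 1 array gave 1672 to 3592 higher and 1964 to 3680 lower genes among all tested, 0 to 2 higher and 20 to 29 lower among the 37, and 1 to 5 lower RNA polymerase II subunits; RNA polymerase I and III subunits stayed at 6 and 7. These fits rest on fewer arrays. Other filters, no variance trend, array weights per group and median centring kept each of these counts within 1.5 times, with 25 to 29 of the 37 lower. No paired analysis was possible because the siFGFR3 arrays carry siRNA names and no replicate number shared with the controls. Signal over background was not analysed here, which limits POLR3G, POLR2A and POLR2F.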
